A study of Mus musculus with 23 samples.

Results

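The comparison described here is Boc-DON against control in Q111 cells. Its members were chosen by the sample titles, 3 arrays of Q111 cells with Boc-DON (50 µM for 12 h) and 3 arrays of Q111 control cells, 6 of the 23 samples of the series. Q111 is a mouse striatal line made from a Huntington disease model, and Q7 is its control line. Both lines served as control or received ZDON (50 µM, 12 h), Boc-DON (50 µM, 12 h) or cystamine (250 µM, 12 h), and total RNA was hybridised to Illumina mouse bead arrays to ask what inhibition of transglutaminase 2 (TG2) does to transcription. There were 3 arrays for each of the 8 groups, apart from 2 for Boc-DON in Q7. For the control arrays the labels state neither vehicle nor duration, so an effect of a vehicle or of the 12 h cannot be told apart from that of the compound. Each line is a single cell line, and nothing in the labels says that the replicates came from separate cultures, so the p-values rest on the spread among these arrays, which may be technical.

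TG2 is an enzyme that cross-links proteins by joining a glutamine residue of one to a lysine residue of another, and proteins with long glutamine tracts such as mutant huntingtin can serve as its substrates. DON is the common name of a reactive analogue of glutamine, and compounds that carry it attach to the active site of enzymes that bind glutamine. The labels give Boc-DON and ZDON by these names alone. Q111 and Q7 cells are used as a culture model of striatal neurons at an immature stage.

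Replicates 1, 2 and 3 of a group lay on BeadChips 1, 2 and 3, and the BeadChip was kept in the model as a block. Before normalization the median signal was 131, 135 and 155 intensity units in the control arrays and 114, 123 and 131 in the Boc-DON arrays, lower with Boc-DON on each BeadChip. The probe named for 18S rRNA was also lower on each BeadChip, at 23492, 25238 and 21856 units in control and 21189, 21305 and 18009 with Boc-DON. The part of this signal difference in the results was not tested beyond the scalings given with them. Principal components of the 6 arrays followed the BeadChips first (36.4% of the variance, with 94.4% of that component between BeadChips) and the treatment next (29.4%, with 78.4% of it between treatments). Of 17 probed markers of striatal projection neurons, 6 lay below the median of the array on all 6 arrays, among them Bcl11b, Gad1 and Gad2. The striatal markers Pde1b, Meis2 and Foxp1 lay above the median. Below it on all 6 arrays lay 8 of 16 general neuronal markers, 6 of 14 progenitor markers, 5 of 10 astrocyte markers and 7 of 9 oligodendrocyte markers. So did 6 of 9 microglial markers and 7 of 11 endothelial and pericyte markers, but only 3 of 15 fibroblast markers. The 6 progenitor markers were Pax6, Gsx2, Hes5, Fabp7, Prom1 and Msi1, while Nes, Sox2 and Vim lay above the median.

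Among the genes past the test more were lower than higher with Boc-DON, and their changes were small. Over all genes tested 46.8% of estimates lay below 0. Quantile normalization gives all arrays the same distribution, so this share cannot show whether signals fell in general. Of 9849 genes, 79 differed from control at an adjusted p under 0.05 (0.802% of the genes tested), 59 lower (0.599%) and 20 higher (0.203%). The lowered genes included the retinoic acid hydroxylase Cyp26b1, the chemokines Cxcl1 and Ccl7, the lipid droplet coat gene Plin2 and the phosphatase gene Dusp4. The raised genes included the lysosomal transporter gene Slc46a3 and the cell cycle inhibitor gene Cdkn1a. Falls ran from -1.31 to -0.37 and rises from 0.35 to 0.86 on the log2 scale, and the median size was 0.574. Only Lce1f and Cyp26b1 passed the test with a change beyond 2-fold. The 3 Boc-DON values lay wholly above or below the 3 control values for 74 of the 79 genes, against 18.6% of all genes (10.2% with Boc-DON above and 8.34% below). All 79 moved the same way on each of the 3 BeadChips. The 79 genes were chosen on these same arrays with the BeadChip as a block, so neither count is separate support for them.

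The test was limma's moderated test on normalized log2 intensities, with all 23 arrays, the BeadChip as a block and Benjamini-Hochberg adjustment over all genes. The block decided most of the calls, since 6 genes passed without it (Slc46a3, Cyp26b1, Lce1f, Plin2, Bbs9 and Mmp10), all of them among the 79. Many calls were also lost when 1 array was left out, which leaves fewer arrays for the test as well. Leaving out 1 of the 6 arrays left between 10 genes (without control replicate 3) and 49 genes (without control replicate 1) past the test, with 25, 18 and 15 without Boc-DON replicates 1, 2 and 3 and 21 without control replicate 2. Of the 79 genes, 7 stayed past the test with each of the 6 arrays left out in turn, and 30 stayed past it with none. Without all arrays of BeadChip 1 no gene passed, without BeadChip 2 only 1 did, and without BeadChip 3 54 did. None of the 79 genes passed with every BeadChip left out in turn.

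**Figure D1:**
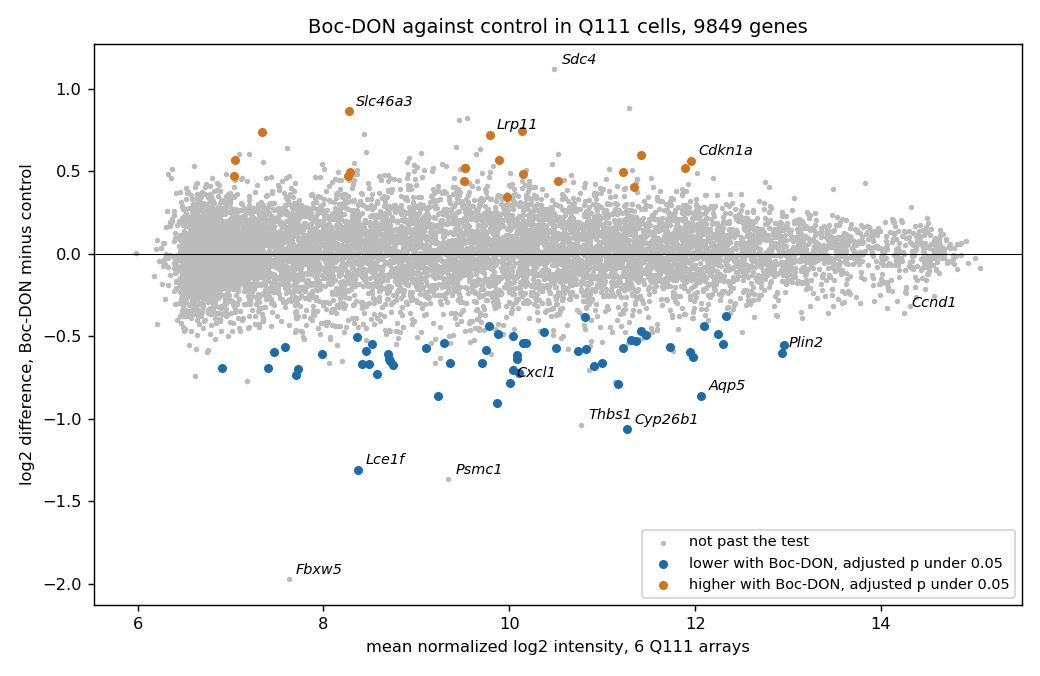
Log2 difference between the means of Boc-DON and control in Q111 cells (vertical axis) against the mean normalized log2 intensity of the 6 arrays (horizontal axis), 1 point per gene for 9849 genes. The 59 lower and 20 higher genes past the test are coloured. Of the 79, 2 lie below the array median in control, against 1918 of all 9849 genes. Fbxw5, Psmc1, Thbs1 and Sdc4 lie beyond 2-fold without passing the test, since their arrays scatter widely.

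The 7 genes that kept their call without any 1 array were Lce1f, Cyp26b1, Aqp5, Cxcl1, Dusp4 and Traf1, all lower, and Slc46a3, higher. Cyp26b1 encodes the hydroxylase that breaks down retinoic acid. Its log2 intensity was 11.86, 11.89 and 11.65 in the control arrays and 10.80, 10.98 and 10.43 in the Boc-DON arrays. All Boc-DON values lay below all control values. The difference was -1.06 (SE 0.108, adjusted p = 4.97e-05), a 2.09-fold fall, and the adjusted p was 0.000246 without the block. The other 7 measured genes of retinoic acid metabolism did not pass the test, and the median of the 8 was -0.101. Stra6, a retinol transporter gene, stood at -0.22, Rdh10, which makes retinaldehyde, at -0.23 and the receptor gene Rarg at -0.19.

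Lce1f encodes a protein of the cornified envelope of skin, a structure that transglutaminases cross-link. Its log2 intensity was 9.56, 9.09 and 8.43 in control and 7.88, 7.79 and 7.49 with Boc-DON. The control arrays differed more among themselves than the Boc-DON arrays did, but the groups did not overlap. The difference of -1.31 (SE 0.14, adjusted p = 5.41e-05) was the largest fall past the test. Among 12 measured epidermal genes 2 were lower and none higher, with a median of -0.181. The second was Krtap1-5, a keratin-associated protein gene of hair, at -0.61 (SE 0.122, adjusted p = 0.0246). Krtap1-5 kept its call without 1 of the 6 arrays only, and its adjusted p reached 0.169 without control replicate 3. Krt8 (-0.34, adjusted p = 0.273) and Lce1g (-0.47, adjusted p = 0.287) did not pass.

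Slc46a3 encodes a transporter of the lysosomal membrane. Its log2 intensity was 7.80, 7.89 and 7.84 in control and 8.67, 8.70 and 8.75 with Boc-DON. Both groups were tight and they lay far apart, with a difference of 0.86 (SE 0.116, adjusted p = 0.00128, and 0.00231 without the block). It was the only one of 32 measured lysosome and autophagy genes past the test, and the list's median was 0.0779 beside 0.0124 for all genes (0.137 beside 0.0373 with median scaling). Lamp2, a lysosomal membrane glycoprotein gene, stood at 0.44 (adjusted p = 0.17), Map1lc3b, a marker of autophagosomes, at 0.39 (0.198) and Gusb, a lysosomal glucuronidase gene, at -0.45 (0.186).

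Aqp5, a water channel gene, had log2 intensities of 12.65, 12.71 and 12.13 in control and 11.68, 11.64 and 11.59 with Boc-DON. The groups did not overlap, and the difference was -0.86 (SE 0.123, adjusted p = 0.00195, but 0.166 without the block). Aqp1, a second water channel gene past the test, was named after its values were seen, at -0.63 (SE 0.107, adjusted p = 0.0102). Its adjusted p reached 0.0751 without control replicate 3, and it was lost without Boc-DON replicate 3 as well.

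**Figure D2:**
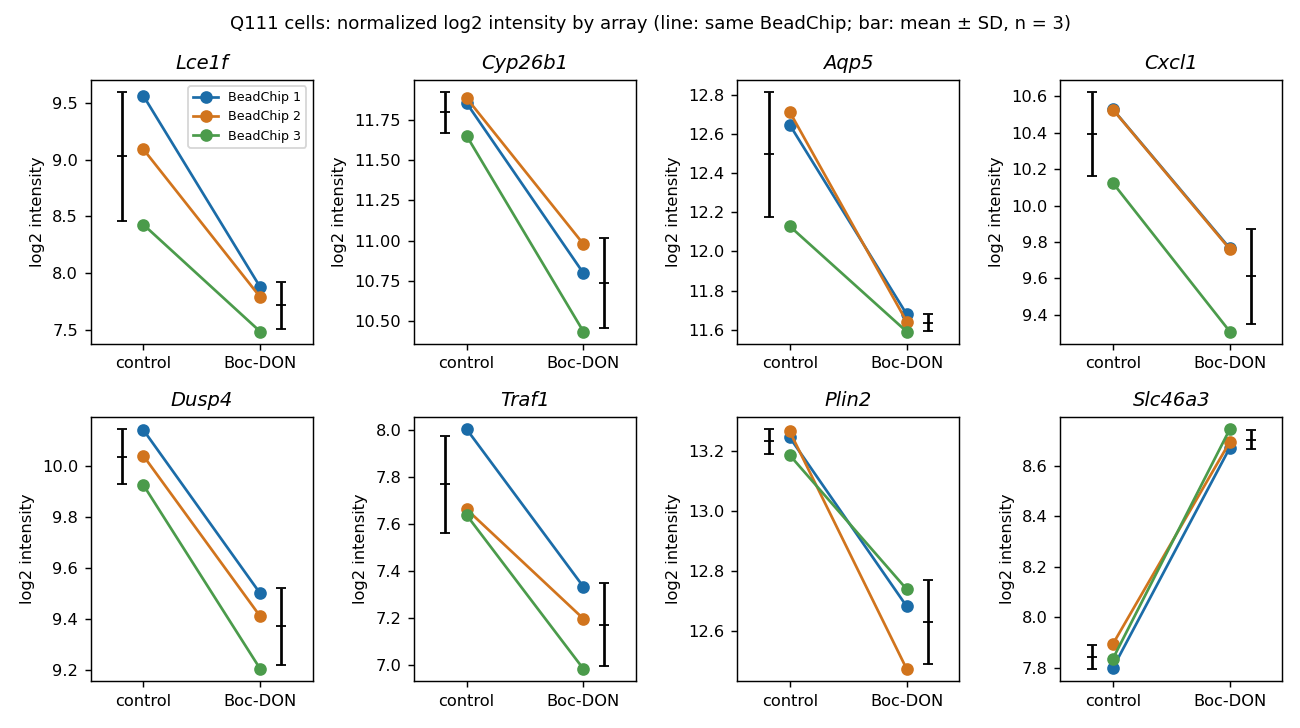
Normalized log2 intensity of 8 genes in the 3 control and 3 Boc-DON arrays of Q111 cells, with a line joining arrays on the same BeadChip and bars for the mean ± SD (n = 3). Every line of the 7 lowered genes falls and every line of Slc46a3 rises, and the starting level differs between BeadChips for Lce1f, Aqp5 and Cxcl1.

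In the lists of inflammation and chemokine genes every gene past the test was lower. NF-kappaB is a transcription factor that is held in the cytosol by inhibitors and switches on chemokine, adhesion and survival genes once it is released. Of 22 measured NF-kappaB and inflammation genes 3 were lower (Cxcl1, Traf1 and Ccl7) and none higher, and the median was -0.0946. By BeadChip the median was -0.263, -0.119 and 0.00874, so this list did not fall on BeadChip 3. Of 17 measured chemokines and their receptors 2 were lower, Cxcl1 and Ccl7, and none higher. In that list 16 of 17 estimates lay below 0 (94.1%, beside 46.8% of all genes), and the median was -0.212. The share was similar for the measured Notch signalling genes (92.3%), and the chemokine median with ZDON in Q111 was -0.17. No test was made of either list.

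Cxcl1, a chemokine that attracts neutrophils, had log2 intensities of 10.53, 10.53 and 10.12 in control and 9.77, 9.76 and 9.31 with Boc-DON. The groups did not overlap, and the fall was close to the same on each BeadChip, at -0.78 (SE 0.112, adjusted p = 0.00195). Its adjusted p was 0.0619 without the block. Traf1, an adaptor of tumour necrosis factor receptors, stood at 8.01, 7.66 and 7.64 in control and 7.33, 7.20 and 6.98 with Boc-DON. Its difference was -0.60 (SE 0.0933, adjusted p = 0.00485, but 0.16 without the block). Ccl7, a chemokine that attracts monocytes, stood at 10.40, 10.39 and 10.40 in control and 9.76, 9.73 and 9.59 with Boc-DON. The control arrays were nearly equal and the groups lay apart, with a difference of -0.71 (SE 0.155, adjusted p = 0.0359). Ccl7 was lost on leaving out any 1 array but control replicate 1, and its adjusted p reached 0.239 without control replicate 3. Vcam1, an adhesion molecule gene, stood at -0.36 (adjusted p = 0.0884), the chemokine Cx3cl1 at -0.46 (0.0991) and the chemokine Ccl9 at -0.51 (0.111).

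The promoters of the genes that kept their call without any 1 array are printed for the 5 with an entry in the RefSeq table used here (build GRCm38.p6), from 250 bases before to 50 bases after the start of the gene, on the strand of the gene. They are shown because a run of letters bound by NF-kappaB is known for chemokine genes, and capitals mark every match to the NF-kappaB consensus on either strand, overlapping matches included. Those of Lce1f and Dusp4 were not used here. The 5 windows are Cyp26b1 at chr6:84593761-84594060 (minus strand), Aqp5 at chr15:99590778-99591077 (plus strand), Cxcl1 at chr5:90890995-90891294 (plus strand), Traf1 at chr2:34961723-34962022 (minus strand) and Slc46a3 at chr5:147894766-147895065 (minus strand).
Cyp26b1: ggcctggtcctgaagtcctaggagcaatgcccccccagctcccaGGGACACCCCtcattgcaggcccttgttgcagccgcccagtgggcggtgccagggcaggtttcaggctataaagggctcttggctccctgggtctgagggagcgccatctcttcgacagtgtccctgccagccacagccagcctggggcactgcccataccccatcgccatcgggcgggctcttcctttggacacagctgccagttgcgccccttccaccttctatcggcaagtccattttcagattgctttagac
Aqp5: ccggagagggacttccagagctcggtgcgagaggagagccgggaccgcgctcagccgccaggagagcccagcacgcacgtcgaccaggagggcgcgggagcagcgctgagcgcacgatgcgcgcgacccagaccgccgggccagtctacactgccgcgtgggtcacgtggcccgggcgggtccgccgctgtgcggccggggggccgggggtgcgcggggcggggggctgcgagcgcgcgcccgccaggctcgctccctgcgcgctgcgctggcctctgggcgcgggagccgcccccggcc
Cxcl1: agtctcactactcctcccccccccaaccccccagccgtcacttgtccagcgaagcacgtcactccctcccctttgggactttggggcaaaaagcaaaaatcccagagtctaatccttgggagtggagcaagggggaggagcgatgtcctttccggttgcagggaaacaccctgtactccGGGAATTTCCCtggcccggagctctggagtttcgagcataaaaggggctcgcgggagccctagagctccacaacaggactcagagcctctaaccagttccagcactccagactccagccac
Traf1: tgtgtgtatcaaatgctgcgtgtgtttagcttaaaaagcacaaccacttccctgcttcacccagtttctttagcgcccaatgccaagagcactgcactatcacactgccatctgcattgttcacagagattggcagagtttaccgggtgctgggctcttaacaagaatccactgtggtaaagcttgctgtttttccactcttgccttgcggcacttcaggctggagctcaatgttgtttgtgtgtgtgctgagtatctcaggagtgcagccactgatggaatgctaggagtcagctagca
Slc46a3: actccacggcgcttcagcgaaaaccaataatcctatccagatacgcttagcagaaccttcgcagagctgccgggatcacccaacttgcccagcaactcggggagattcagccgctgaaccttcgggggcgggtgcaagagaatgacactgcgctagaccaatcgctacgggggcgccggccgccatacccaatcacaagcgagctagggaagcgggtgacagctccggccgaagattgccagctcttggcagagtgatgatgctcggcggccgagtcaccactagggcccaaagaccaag

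Cxcl1 held 2 overlapping matches, which begin at positions -71 and -70 from the start of the gene, and Cyp26b1 held 1 that begins at position -206. The windows of Aqp5, Traf1 and Slc46a3 held no match. Over all genes tested, 973 of the 7995 with a promoter in the table held the consensus (12.2%), and so did 8.46% of all RefSeq windows searched. Among the measured NF-kappaB genes 10 of 16 held it (62.5%), among the genes lower with Boc-DON 8 of 44 (18.2%) and among the genes higher with Boc-DON 1 of 16 (6.25%). These shares describe letters only, and no test was made of them.

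Genes switched on by growth factor signalling through the kinase ERK gave 2 calls. Of 34 measured immediate early and ERK feedback genes 2 were lower (Dusp4 and Fosl1) and none higher, with a median of -0.0439 (-0.0211 with median scaling). Dusp4, a phosphatase that switches off mitogen-activated kinases, had log2 intensities of 10.14, 10.04 and 9.92 in control and 9.50, 9.41 and 9.21 with Boc-DON. The groups did not overlap, and the difference was -0.66 (SE 0.104, adjusted p = 0.00485, and 0.0689 without the block). A dimmer probe of Dusp4 stood at -0.212 (adjusted p = 0.59). Fosl1, a subunit of the transcription factor AP-1, stood at 9.82, 9.68 and 9.56 in control and 9.07, 9.18 and 8.83 with Boc-DON. Its difference was -0.66 (SE 0.138, adjusted p = 0.0283), and no call remained on leaving out any of the 6 arrays, with an adjusted p of up to 0.137 without Boc-DON replicate 3. Dusp6, a phosphatase for ERK, stood at -0.46 (adjusted p = 0.0963), and Atf3, a stress-induced transcription factor gene, at 0.64 (0.0918).

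Ccnd1 encodes cyclin D1, which drives entry into the cell cycle, and it was measured by 4 probes. The brightest of them, which stood for the gene, was at -0.356 (SE 0.103) and did not pass (adjusted p = 0.113 over genes). When every probe was tested on its own (0.592% of 12504 probes lower), the other 3 probes fell. Their differences were -0.734 (SE 0.104, adjusted p = 0.00211), -0.608 (SE 0.0891, adjusted p = 0.00211) and -0.845 (SE 0.131, adjusted p = 0.00373). The probe with the largest difference stood at 12.81, 12.85 and 13.16 in control and 12.17, 12.27 and 11.83 with Boc-DON. In each of the 4 probes all Boc-DON values lay below all control values. The probes of Ccnd1 were singled out after their values were seen.

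**Figure D3:**
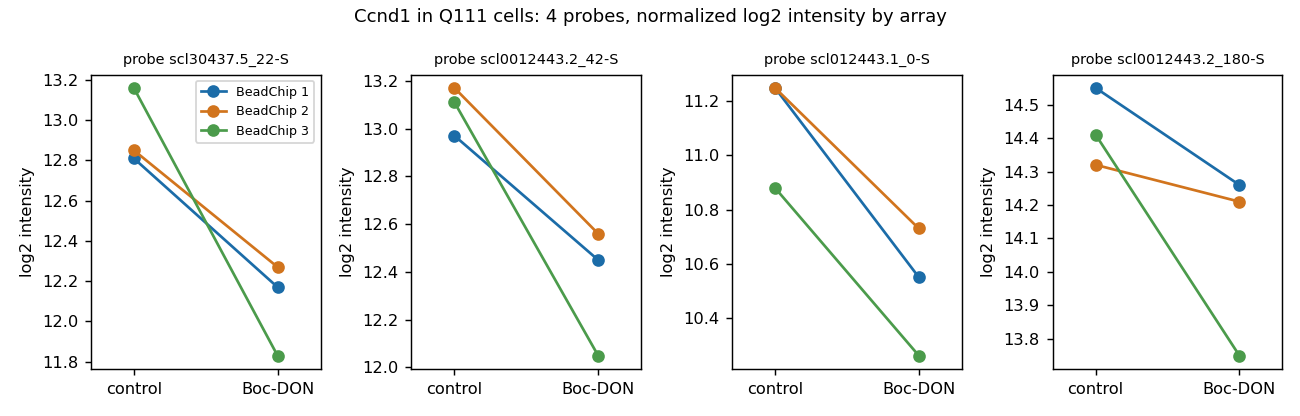
Normalized log2 intensity of the 4 Ccnd1 probes in the control and Boc-DON arrays of Q111 cells, with a line joining arrays on the same BeadChip. All 12 lines fall, and the probe at the right, the brightest, falls least on BeadChips 1 and 2.

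Of 14 measured WNT signalling genes 1 was lower and none higher, with a median of -0.122. The gene was Ccn5, a secreted matrix protein gene switched on by WNT, with log2 intensities of 9.81, 9.55 and 9.61 in control and 8.87, 8.71 and 8.82 with Boc-DON. The groups lay well apart, with a difference of -0.86 (SE 0.188, adjusted p = 0.0345). Ccn5 kept its call without 1 of the 6 arrays only, and its adjusted p reached 0.2 without control replicate 3. The ligand gene Wnt4 stood at -0.50 (adjusted p = 0.154) and the receptor gene Fzd7 at 0.22 (0.419). Of 18 measured BMP genes 1 was lower, Grem1, a secreted BMP antagonist, with a median of -0.0539 for the list (-0.0299 with median scaling). Grem1 stood at 8.19, 8.27 and 7.75 in control and 7.73, 7.62 and 6.77 with Boc-DON, values that only just did not overlap. Its difference was -0.70 (SE 0.132, adjusted p = 0.0155), and the adjusted p was 0.131 without control replicate 3 and 0.583 without the block. Its call also ended without Boc-DON replicate 2 or 3. The BMP-induced genes Id1 (-0.23, adjusted p = 0.255) and Id4 (-0.37, 0.194) and the tendon factor gene Scx (-0.35, 0.172) did not pass.

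Of 16 measured matrix proteases and invasion genes 1 was lower, with a median of -0.14 and 81.2% of estimates below 0. Mmp10, a secreted protease gene, had log2 intensities of 9.06, 9.02 and 9.05 in control and 8.51, 8.46 and 8.21 with Boc-DON. The controls were nearly equal and the difference was -0.65 (SE 0.118, adjusted p = 0.012, and 0.047 without the block). Its call ended without Boc-DON replicate 3, control replicate 2 or control replicate 3, with adjusted p of up to 0.0891. Plaur, the receptor gene of urokinase, stood at -0.43 (adjusted p = 0.143), Adamts1 at -0.33 (0.2) and Mmp19 at -0.32 (0.225). None of 34 collagen and matrix genes passed, and their median was -0.15 (-0.0888 with median scaling). None of 12 measured fibroblast markers passed either, although 10 of their estimates lay below 0. Theirs was the lowest median of the lists with no gene past the test, -0.323. The summed linear signal of the 15 fibroblast markers, in which the brightest weigh most, lay between 25900 and 31400 in control. With Boc-DON it lay between 25200 and 30000, which overlaps. Collagen genes such as Col1a1 are among these markers, so the markers and the matrix genes are not separate groups. Q111 is a single cell line, and whether a change in the share of such cells bears on the matrix genes was not tested.

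Genes of fat storage gave 2 calls. The lipid droplet is a store of neutral fat that is coated by perilipins and opened by lipases. Of 23 measured lipid droplet and lipolysis genes 2 were lower and none higher, and the median was 0.0014 (0.00741 with median scaling). Plin2, the coat gene of most cell types, had log2 intensities of 13.25, 13.27 and 13.19 in control and 12.68, 12.47 and 12.74 with Boc-DON. The groups lay apart, with a difference of -0.60 (SE 0.108, adjusted p = 0.012, and 0.0418 without the block). Its call ended without Boc-DON replicate 2 (adjusted p = 0.108), control replicate 2 or control replicate 3. Mgll, the lipase gene for monoacylglycerol, was at -0.51 (SE 0.0938, adjusted p = 0.0148), kept its call without 2 of the 6 arrays and reached an adjusted p of 0.0926 without Boc-DON replicate 2. A dim second probe of Mgll stood at 0.082. Plin4 stood at -0.70 (adjusted p = 0.179) and Pnpla2, the lipase gene for triglyceride, at 0.28 (0.39).

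Of 14 measured PPAR target and fatty acid oxidation genes 1 was lower and none higher, with a median of 0.0775. Angptl4, a secreted inhibitor of lipoprotein lipase, had log2 intensities of 11.23, 11.07 and 11.47 in control and 10.57, 10.65 and 10.51 with Boc-DON. The groups did not overlap, and the difference was -0.68 (SE 0.119, adjusted p = 0.0109, and 0.0619 without the block). Its call ended without Boc-DON replicate 3 (adjusted p = 0.0886) or control replicate 3. A dimmer probe of Angptl4 stood at -0.345 (adjusted p = 0.217). The oxidation genes Hadhb (0.23), Cpt2 (0.21) and Cpt1b (0.25) did not pass, with adjusted p of 0.362, 0.419 and 0.439.

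Of 24 measured p53 targets 1 was higher and 1 lower, and the median was 0.162, with 18 of 24 estimates above 0. Cdkn1a encodes p21, which stops the cell cycle. Its log2 intensity was 11.92, 11.89 and 11.21 in control and 12.36, 12.39 and 11.95 with Boc-DON. Both arrays of BeadChip 3 were low and the groups only just did not overlap, but the rise was seen on each BeadChip, at 0.56 (SE 0.0986, adjusted p = 0.0109, but 0.546 without the block). Its call ended without Boc-DON replicate 3 (adjusted p = 0.0886) or control replicate 3, and its second probe stood at 0.337 (adjusted p = 0.463). Plk2, a polo-like kinase gene induced by p53, stood at 12.03, 12.13 and 11.89 in control and 11.53, 11.50 and 11.31 with Boc-DON. It was thus lower in every Boc-DON array, at -0.57 (SE 0.105, adjusted p = 0.0148), kept its call without 1 of the 6 arrays and reached 0.0886 without Boc-DON replicate 3. Gadd45a (0.35, adjusted p = 0.143) and Trp53inp1 (0.62, adjusted p = 0.17) did not pass.

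Genes of growth and division gave single calls. Of 22 measured purine and pyrimidine synthesis genes 1 was lower, with a median of -0.0834 (-0.0285 with median scaling). Atic, whose enzyme catalyses the last steps of purine synthesis, stood at -0.49 (SE 0.113, adjusted p = 0.0433) and its second probe at -0.489 (adjusted p = 0.0711). Atic lost its call on leaving out any 1 array, with an adjusted p of up to 0.267 without control replicate 3. Umps (-0.36), Tk1 (-0.27) and Shmt1 (-0.31), which serve the synthesis of pyrimidines or of one-carbon units, had adjusted p from 0.255 to 0.34. None of the 14 measured enzymes that use glutamine as a substrate passed, and their median was 0.0369 (0.0651 with median scaling).

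Of 24 measured mitosis genes 1 was higher, with a median of 0.0931. Nusap1, which binds the mitotic spindle, had log2 intensities of 11.34, 11.45 and 12.11 in control and 11.87, 11.92 and 12.66 with Boc-DON. The groups overlapped, since both arrays of BeadChip 3 were high, and the difference of 0.52 (SE 0.106, adjusted p = 0.0269) rested on the block, with 0.651 without it. The call was lost without any 1 of the 6 arrays, with an adjusted p of up to 0.118 without control replicate 3. Mad2l1 (0.40), Kif23 (0.17) and Bub3 (-0.20) did not pass, with adjusted p of 0.0991, 0.468 and 0.363.

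Further large falls lay outside these gene lists. Ly6c1, a surface protein gene of the Ly6 family, had log2 intensities of 10.22, 10.27 and 10.45 in control and 9.43, 9.37 and 9.44 with Boc-DON, a wide gap between tight groups. Its difference was -0.90 (SE 0.175, adjusted p = 0.0197), and its adjusted p was 0.155 without control replicate 3. Tnnt2, the cardiac troponin T gene, fell by 0.79 on the log2 scale (adjusted p = 0.012), and Kcnn4, a calcium-activated potassium channel gene, fell by 0.73 (0.0417). Siglecg, a lectin gene of B cells, fell by 0.73 (0.0269), and Clca3b, of a family tied to chloride channels, fell by 0.69 (0.0283). Of these, Ly6c1 kept its call without 2 of the 6 arrays, Tnnt2 without 3, Siglecg without 2 and Clca3b without 1, and Kcnn4 lost its call with any 1 array left out. The highest adjusted p was 0.0906 for Tnnt2 and 0.216 for Kcnn4, both without Boc-DON replicate 3, and 0.181 for Siglecg and 0.195 for Clca3b, both without control replicate 3.

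The rises after Slc46a3 held genes of several functions. Sptssa, a small subunit of the enzyme that starts sphingolipid synthesis, had log2 intensities of 9.58, 9.78 and 9.93 in control and 10.18, 10.41 and 10.93 with Boc-DON. The groups did not overlap but spread widely, and the rise was 0.74 (SE 0.164, adjusted p = 0.0367, and 0.432 without the block). Rassf4, of the Ras-association family, stood at 6.93, 7.14 and 6.85 in control and 7.95, 7.50 and 7.68 with Boc-DON, a rise of 0.74 (adjusted p = 0.0286), and Lrp11, of the LDL receptor family, rose by 0.72 (0.0155). Nxt2, an mRNA export factor gene, rose by 0.60 (0.0291). Rises also passed for Mindy2, a deubiquitinase gene (0.57), Pnpla8, a phospholipase gene (0.57), Bbs9, a ciliary transport gene (0.52), Cyhr1 (0.50), 0610009B22Rik (0.50) and Mib2, a ubiquitin ligase gene (0.48), with adjusted p from 0.0102 to 0.0476. Of these 10 genes Bbs9 kept its call without 4 of the 6 arrays (adjusted p up to 0.0815 without control replicate 3), and the others without 1 or none. Their highest adjusted p lay between 0.0993 for Lrp11 (without Boc-DON replicate 3) and 0.288 for 0610009B22Rik (without control replicate 3). The other probes of Cyhr1, 4 in number, stood between -0.001 and 0.226 and none passed, and the second probe of Bbs9 stood at 0.019.

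The genes of the targeted enzyme and of the disease gene were not among those past the test. Tgm2, which encodes TG2, had log2 intensities of 7.80, 7.75 and 8.70 in control and 7.31, 7.47 and 8.26 with Boc-DON. The arrays of BeadChip 3 were high in both groups, and the difference was -0.40 (SE 0.263, adjusted p = 0.541). The arrays measure the message and not the activity of the enzyme. Htt, the huntingtin gene, stood at 0.12 (adjusted p = 0.55), and the neurotrophin gene Bdnf at -0.21 (0.527). Ppargc1a, a regulator of mitochondrial genes, stood at 0.15 (0.711) and cytochrome c, Cycs, at 0.21 (0.316). None of 49 oxidative phosphorylation genes and none of 12 PGC-1alpha axis genes passed, with medians of 0.044 (19 of 49 estimates below 0) and 0.0386. With median scaling these were 0.171 (2 of 49 below 0) and 0.079.

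Over the 45 gene lists, 14 held a gene past the test and 31 did not. Of the 79 genes, 19 were in a list and 60 in none. Medians of the 31 lists lay between -0.323 for fibroblast markers and 0.0848 for NRF2 targets. List medians depended on the scaling of the arrays. When arrays were scaled to a common median instead of quantile normalized, all genes had a median of 0.0373, and the median of a list moved by up to 0.266. The cytosolic ribosomal protein genes went from 0.0675 (13 of 56 below 0) to 0.333 (3 of 56), the proteasome genes from 0.0529 to 0.196, heat shock genes from 0.0583 to 0.179 and NRF2 targets from 0.0848 to 0.187. Glycolysis, TCA cycle and histone genes, near 0 in both, changed sign. The lists of chemokines, NF-kappaB genes, p53 targets and fibroblast markers stayed close, at -0.204, -0.096, 0.144 and -0.331.

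**Figure D4:**
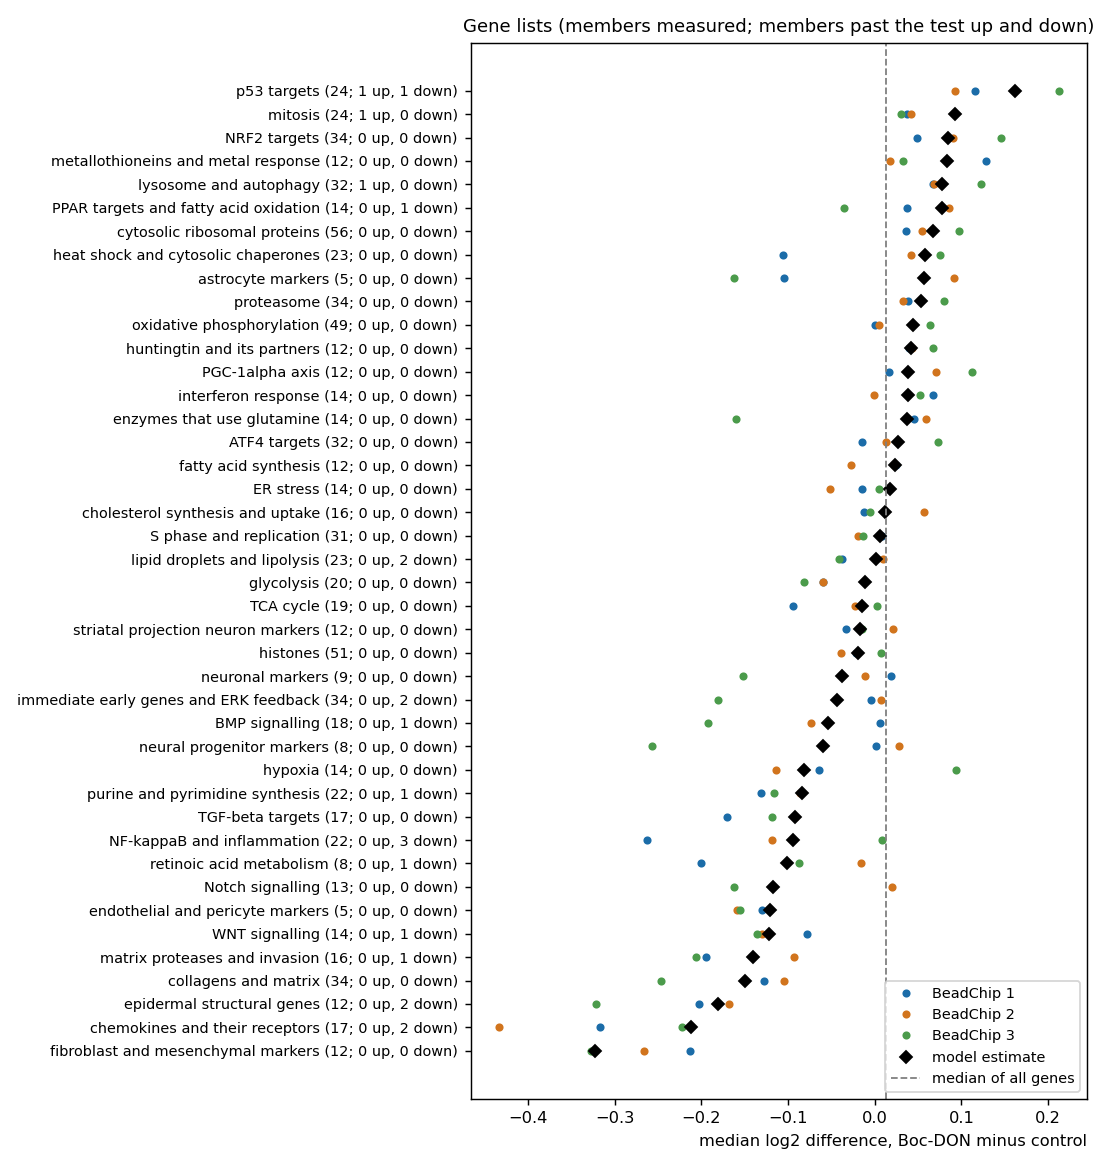
Median log2 difference, Boc-DON minus control in Q111 cells, of each gene list with at least 5 measured members, from the model (diamonds) and from each BeadChip alone (points); the label gives the members measured and those past the test. The dashed line is the median of all genes, 0.0124. The chemokines lie left of it on all 3 BeadChips, and so do other lists, among them collagens and matrix, matrix proteases and fibroblast markers.

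Boc-DON was also given to Q7 cells, where 2 treated arrays were set against 3 control arrays of that line. In Q7 25 genes passed the test (0.254%), 2 higher (0.0203%) and 23 lower (0.234%). All 59 genes lower in Q111 had an estimate below 0 in Q7 as well, and 13 of them passed there. Of the 20 higher genes 15 had the same direction in Q7 and 1 passed, Slc46a3. Of all genes 59.9% had the same direction in both lines. Both lines lay on the same BeadChips, and the model estimated the BeadChip effects and the variance from all 23 arrays. The 2 treated Q7 arrays lay on BeadChips 1 and 2, while the Q7 controls lay on all 3. The Q7 difference was therefore adjusted by BeadChip effects to which the Q111 arrays contributed. The shared directions are thus not wholly separate from the Q111 data.

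Cyp26b1 had log2 intensities of 12.19, 12.01 and 11.97 in Q7 control and 10.79 and 10.77 in Q7 with Boc-DON, a difference of -1.33 (adjusted p = 9.66e-06). Slc46a3 stood at 7.34, 7.67 and 7.41 in Q7 control and 8.33 and 8.39 with Boc-DON, a difference of 0.86 (adjusted p = 0.00455), the same size as in Q111. Cxcl1 in Q7 stood at -1.0 (adjusted p = 0.000521), Lce1f at -1.27 (0.000521), Traf1 at -0.69 (0.00455), Dusp4 at -0.71 (0.0104) and Plin2 at -0.60 (0.0418). None of these genes differed between the lines past the test. For Cdkn1a, Pnpla8, Mindy2 and Siglecg the Q7 estimates were near 0, at -0.02, -0.03, -0.04 and -0.04. The difference between the lines was tested for every gene, and none passed (0%). The smallest adjusted p was 0.955 in limma, with 464 genes under 0.05 unadjusted, and no other tool was run. Cdkn1a was 0.59 higher in its Q111 than its Q7 response (unadjusted p = 0.000841) and Siglecg 0.68 lower (unadjusted p = 0.00653), and neither passed the adjustment.

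ZDON was given at the same dose and for the same time as Boc-DON, and this 1 pair of compounds was compared directly in Q111. Of 9849 genes 6 differed (0.0609%), all of them lower with Boc-DON than with ZDON: Cyp26b1, Angptl4, Slc7a11, Cdx2, Dctd and Dusp4. Cyp26b1 stood at 11.46, 11.43 and 11.42 with ZDON, below the control arrays and above the Boc-DON arrays. It was lower with Boc-DON than with ZDON by a difference of -0.70 (SE 0.108, adjusted p = 0.0231). Angptl4 stood at 11.20, 11.40 and 11.36 with ZDON, within the range of the control arrays, and differed by -0.74 (SE 0.119, adjusted p = 0.0231). Dctd, a deaminase gene of pyrimidine synthesis, stood at 11.69, 11.70 and 11.44 with ZDON and at 11.18, 11.20 and 10.75 with Boc-DON, a difference of -0.57 (SE 0.103, adjusted p = 0.0437). Dusp4 differed by -0.57 as well (SE 0.104, adjusted p = 0.0437), with 10.15, 10.11 and 9.56 with ZDON.

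Slc7a11 encodes the cystine transporter, a stress-induced gene. It stood at 7.70, 7.73 and 7.49 in control, 7.69, 7.68 and 7.31 with Boc-DON and 8.63, 8.61 and 7.94 with ZDON. The Boc-DON arrays overlapped the controls and the ZDON arrays lay above both. The compounds differed by -0.83 (SE 0.141, adjusted p = 0.0236). Cdx2, a homeobox gene, differed by -0.61 (adjusted p = 0.0236) with overlapping groups, and was named after its values were seen. All 6 differences were lost without the block, and also without Boc-DON replicate 1 or 3 or without ZDON replicate 1 or 2, while 2 genes passed without Boc-DON replicate 2 and 6 without ZDON replicate 3.

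Among the larger responses to Boc-DON, several did not differ past the test between the compounds. The interval of the difference (95%) ran from -0.52 to 0.06 for Lce1f, from -0.33 to 0.24 for Lrp11, from -0.46 to 0.33 for Ccn5 and from 0.26 to 0.74 for Slc46a3. The last leaves out 0, but the adjusted p of Slc46a3 was 0.169, and that of Ccl7, at -0.79, was 0.0736. A p that misses the threshold does not show that the compounds acted alike. Against control, ZDON changed 18 genes in Q111 (0.183%), 11 higher and 7 lower. That contrast shares its control arrays with Boc-DON against control, so the values are given side by side only. Over the 59 genes lower with Boc-DON in Q111 the median was -0.598 there, -0.333 with ZDON in Q111 and -0.452 with Boc-DON in Q7. Over the 20 higher genes it was 0.517, 0.378 and 0.197 in the same order. Both sets were chosen on the first of these values, so no order of size is read from them.

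**Figure D5:**
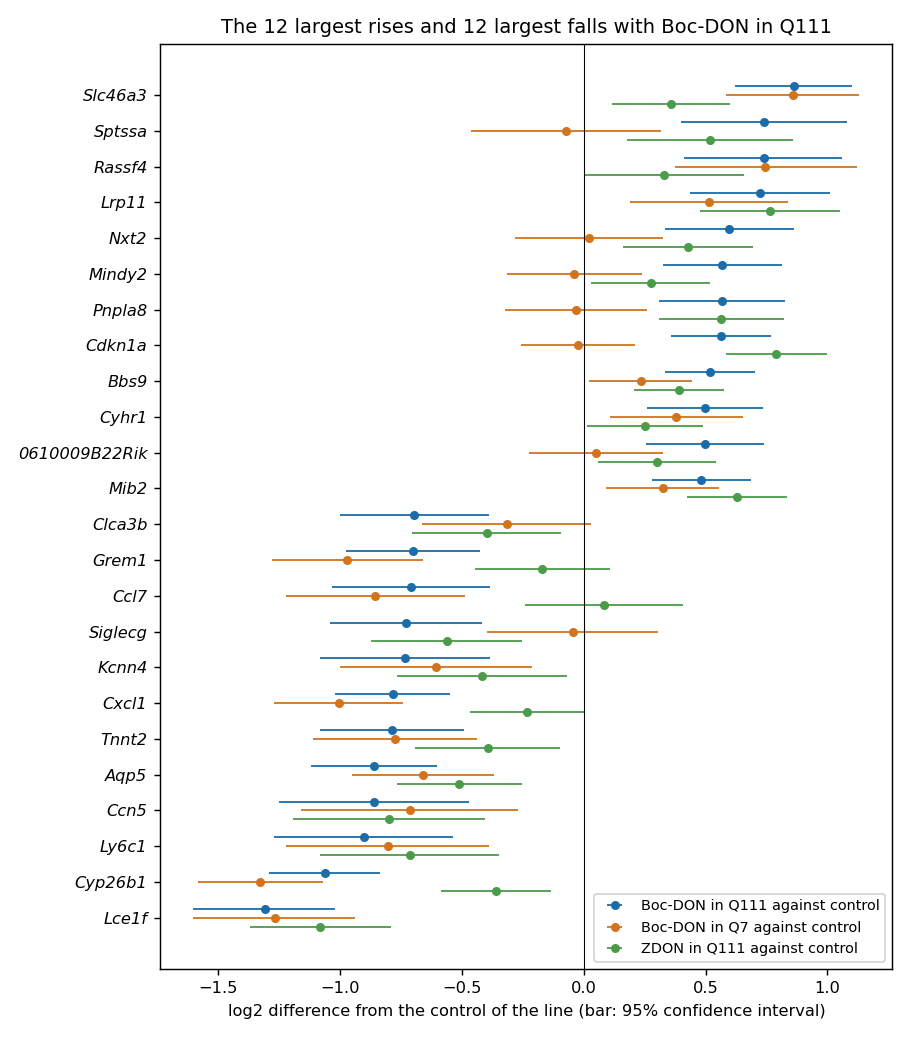
Log2 difference from the control of the same line for the 12 largest rises and 12 largest falls with Boc-DON in Q111, with 95% confidence intervals, for Boc-DON in Q111, Boc-DON in Q7 and ZDON in Q111. The Boc-DON and ZDON differences in Q111 share the Q111 control arrays. Cyp26b1, Lce1f, Ly6c1, Aqp5, Tnnt2, Cxcl1, Kcnn4, Ccl7 and Grem1 lie farther left with Boc-DON in both lines than with ZDON in Q111. Of these genes only Cyp26b1 passed the direct test of the compounds in Q111. The genes shown were chosen by their Boc-DON difference in Q111, so no order of size is read from these positions. Cdkn1a, Pnpla8, Mindy2, Nxt2, Sptssa, 0610009B22Rik and Siglecg lie near 0 in Q7.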

How the data were processed

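Probe intensity was deposited without normalization, as summarised by the authors in BeadStudio, per the submitters' processing notes. The deposited log2 values are the authors' own normalized version of the same arrays. The sources used here do not say whether background had been subtracted. The 1 array column that belongs to no sample was left out.

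The normexp correction (offset 50), quantile normalization and log2 step were done in limma 3.58.1 (R 4.3.3). A single gene symbol, from platform annotation matched to RefSeq names, was held by 19851 of 24611 probes, and the other 4760 had no usable one. A probe was kept if it exceeded the array's median on 2 or more of the 23 arrays (12504 with a symbol), and the brightest kept probe stood for each of 9849 genes. No detection p-values or control probes were used, so that a dim gene cannot be told from an absent one. Precision is limited by the number of arrays.

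A limma model with all 23 arrays, 8 group means and the replicate number as a fixed block left 13 residual degrees of freedom. Benjamini-Hochberg adjustment was made per comparison, at 0.05. The replicate number is the BeadChip in the sample descriptions. After group means were removed, same-numbered control and Boc-DON arrays of Q111 correlated across genes at 0.272, 0.298 and 0.393, and the 77 same-numbered pairs of all arrays had a median of 0.208, against -0.111 for 154 other pairs (genes are not independent replicates). The statistics were tested on simulated data.

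The members and the gene lists were chosen with earlier results of these data known. Named were the 12 largest rises and falls past the test whose groups did not overlap, up to 5 each way for the other comparisons, up to 4 members of each list described with the smallest adjusted p, and Tgm2, Htt, Ppargc1a, Cycs and Bdnf. Lists were described by counts and medians, with no set test. Promoter sequences came from RefSeq (GRCm38.p6).

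The alternatives were no block, a random block, the compared arrays alone, no filter, every probe on its own, no background correction, median scaling, the deposited log2 values, a trended and robust variance, leaving out each array or BeadChip, and leaving out 1 Q7 array with ZDON whose 18S rRNA probe was far below that of the others, added after seeing the data.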

Additional observations from a re-analysis of the deposited data

Results flagged for a closer look

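Probes without a gene symbol stand outside the comparison and were tested apart with the same limma model. Of 2545 such probes 1 was higher with Boc-DON in Q111 and 8 were lower. The higher one, probe scl0057358.1_0-S, had log2 intensities of 6.44, 6.50 and 6.45 in control and 7.76, 6.99 and 7.34 with Boc-DON. All Boc-DON values lay above all control values, with a difference of 0.902 (SE 0.189, adjusted p = 0.0381), beside 0.86 for the largest rise of a gene with a symbol. The probe was dim, with a control mean of 6.463, below that of Mindy2 (6.77), which lay at percentile 45.4 of the control arrays. Leaving out arrays in turn was not done for probes without a symbol. The probe is given because it is a signal above control in probes that the comparison does not use.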

How the results depend on the processing

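None of the 77 named genes changed direction under any setting tried, judged on the probe that stood for the gene. Other probes had the opposite sign for Hadhb (-0.128), Cpt1b (-0.203), Lamp2 (-0.066), Nusap1 (-0.044), Tk1 (0.038) and Adamts1 (0.053). The same held for a probe each of Mgll (0.082) and Cyhr1 (-0.001), and none of these probes passed the test. The number past the test for Boc-DON against control in Q111 was 79. It was 57 with no filter on dim probes, 94 over probes, 88 with no background correction or with the deposited values, 108 with a trended and robust variance, 43 with median scaling (8 higher, 35 lower) and 81 without Q7 ZDON replicate 3. The replicate numbers were a fixed block for the 79. The count was 6 with no replicate block, which ignores these numbers, and 42 with a random block (consensus correlation 0.127). It was 0 with the 6 compared arrays alone and the fixed block. Leaving out arrays or BeadChips gave 0 to 54. The difference between the lines gave 0 genes in every setting in limma. Boc-DON against ZDON in Q111 gave 6 genes, 0 with no replicate block, 0 with the compared arrays alone, 3 with a random block, 12 with a trended and robust variance, 0 to 9 with arrays or BeadChips left out and 4 to 8 otherwise. The compared arrays alone leave few residual degrees of freedom; the cause of the other shifts was not tested. Of the 36 named genes past the test against control, 26 remained with median scaling and all 36 with the deposited values. Ccnd1 passed with the trended variance alone and Gadd45a without BeadChip 3 alone. With no measure of signal over background, dim genes could not be told from absent ones.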

Other observations

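Genes past the test but outside the naming rule and the lists were grouped after their values were seen, and no test was made of the groups. Among them were 4 lower genes, picked as such, 3 of ribosome assembly or protein synthesis and 1 of polyamine synthesis. Nop56, of the particle that modifies ribosomal RNA, stood at -0.54 (adjusted p = 0.0216), Grwd1, a ribosome assembly factor gene, at -0.66 (0.0216), Srm, the spermidine synthase gene, at -0.56 (0.0413) and the initiation factor gene Eif4b at -0.57 (0.0155). Nop56 had log2 intensities of 12.45, 12.61 and 12.67 in control and 12.09, 12.08 and 11.92 with Boc-DON, with no overlap. The 56 measured cytosolic ribosomal protein genes held none past the test, and their median was 0.0675, or 0.333 with median scaling. The calls ended for Grwd1 and Srm on leaving out any 1 array, with adjusted p of up to 0.118 and 0.188 without control replicate 3, and for Nop56 (0.155) and Eif4b (0.118) without that array and others.

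Several genes of secreted signals or matrix passed the test as well. Edn1, the endothelin gene, had log2 intensities of 11.38, 11.28 and 11.86 in control and 10.90, 10.95 and 10.97 with Boc-DON, a fall of 0.57 on the log2 scale (adjusted p = 0.012). The growth factor gene Hbegf stood at -0.38 (0.0463), the WNT receptor ligand gene Ndp at -0.59 (0.0283), and Has2, which makes hyaluronan, at -0.54 (0.0488). Fhl2, a LIM domain gene that responds to the actin cytoskeleton, stood at -0.54 (0.00823) and kept its call without 5 of the 6 arrays, with 0.0536 without Boc-DON replicate 3. Edn1 lost its call without control replicate 3 (0.0963) or Boc-DON replicate 3, and Hbegf and Has2 without any 1 array, with up to 0.202 and 0.245 without Boc-DON replicate 3. Ndp reached 0.18 without control replicate 3. Irak2, a kinase gene downstream of interleukin receptors, stood at -0.61 (0.0283) and reached 0.188 without control replicate 3, while the cytokine gene Il18 rose by 0.47 (0.0367) and reached 0.183 without Boc-DON replicate 3.

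The largest differences of all, those of Fbxw5 and Psmc1, did not pass the test. Fbxw5 had log2 intensities of 7.17, 6.77 and 11.90 in control and 6.46, 6.52 and 6.95 with Boc-DON, a difference of -1.97 (SE 1.49) that rests on control replicate 3. Over the other arrays of the series it took values near 7 or near 12, with 12.06, 6.87 and 6.62 in Q7 control. Psmc1 behaved likewise, with 7.63, 11.19 and 11.26 in control and 6.09, 11.17 and 8.72 with Boc-DON. Sdc4, also beyond 2-fold, stood at 10.84, 10.34 and 8.61 in control and 11.29, 10.86 and 10.98 with Boc-DON, a difference of 1.12 (adjusted p = 0.143) with 1 low control. The cause of these jumps was not tested.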
